A study of Rattus norvegicus with 24 samples.

Results

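The antioxidant enzymes examined here are 6 genes: Sod1 (ENSRNOG00000002115), Sod2 (ENSRNOG00000019048), Cat (ENSRNOG00000008364), Hmox1 (ENSRNOG00000014117), Nqo1 (ENSRNOG00000012772) and Gclc (ENSRNOG00000006302). They were picked by identifier from the 30560 genes in the count files, and all 6 passed the filter on low counts in both tissues. Lung and liver RNA came from wild-type Sprague Dawley rat pups on postnatal day 6. Pups had been injected under the skin once a day for 5 days from postnatal day 1 with vehicle, which was 2.5% ethanol, with dexamethasone at 0.1 mg/kg, or with desisobutyryl ciclesonide at 1.25 mg/kg, and were sampled 24 hours after the last dose. Each tissue and treatment had 4 libraries, 24 in all in 6 groups, with 15397992 to 27881158 gene counts each. Dexamethasone is a synthetic glucocorticoid, desisobutyryl ciclesonide is the active form that the body makes of the inhaled glucocorticoid ciclesonide, and their doses were not matched.

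Superoxide dismutases turn superoxide into hydrogen peroxide, Sod1 in the cytosol and Sod2 in mitochondria, and catalase (Cat) breaks the peroxide down in peroxisomes. Hmox1 degrades haem, Nqo1 reduces quinones, and Gclc is the catalytic subunit of the enzyme that limits glutathione synthesis. Hmox1, Nqo1 and Gclc are textbook targets of the transcription factor Nrf2, which binds antioxidant response elements, whereas glucocorticoids act through the glucocorticoid receptor. The newborn lung meets far more oxygen than the fetal lung, and liver is rich in catalase and a main site of glutathione synthesis. RNA came from bulk tissue, so fewer cells of a type and less RNA per cell cannot be told apart for any of the values given here.

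The upstream sequences are shown for Sod2 and Nqo1, which rose with dexamethasone in both tissues, and for Cat, which did not. They are the 250 bases before the annotated start, from RefSeq on the GRCr8 build, whereas the counts were made on mRatBN7.2. All 3 lie on the minus strand, Sod2 at chr1:50050169-50050418, Cat at chr3:110329527-110329776 and Nqo1 at chr19:52220268-52220517, and each is written 5′ to 3′. Capitals mark a match to the core of the antioxidant response element.
Sod2: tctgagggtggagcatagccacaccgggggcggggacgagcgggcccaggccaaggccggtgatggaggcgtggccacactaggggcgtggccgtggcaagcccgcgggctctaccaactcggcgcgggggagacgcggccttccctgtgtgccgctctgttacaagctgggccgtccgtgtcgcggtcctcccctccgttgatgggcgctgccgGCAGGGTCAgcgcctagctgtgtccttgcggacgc
Nqo1: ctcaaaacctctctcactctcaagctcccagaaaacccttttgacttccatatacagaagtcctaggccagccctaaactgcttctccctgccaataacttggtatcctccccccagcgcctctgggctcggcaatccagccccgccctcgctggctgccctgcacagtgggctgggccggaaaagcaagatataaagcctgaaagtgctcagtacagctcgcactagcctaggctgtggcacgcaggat
Cat: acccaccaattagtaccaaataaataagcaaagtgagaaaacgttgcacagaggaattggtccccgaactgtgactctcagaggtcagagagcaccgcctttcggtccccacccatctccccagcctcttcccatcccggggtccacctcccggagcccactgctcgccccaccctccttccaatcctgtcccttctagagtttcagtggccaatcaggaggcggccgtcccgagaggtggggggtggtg
Searches on both strands for TGACNNNGC, the core of the antioxidant response element, found it in 1 of the 5 members whose sequence was at hand. That match, GCAGGGTCA in Sod2, reads on the opposite strand and lies from -35 to -27 relative to the start. The same letters occur in 10.1% of 33469 rat upstream windows of that length. A palindromic glucocorticoid response element, searched as GNACA followed after any 3 bases by TGTNC, was in none of the 5 and in 0.373% of all windows. The match in Sod2 overlaps no match to the other motif, and elements farther away lie outside these 250 bases. The windows of Sod1 and Gclc are not printed because 81 and 225 of their 250 bases lie inside the gene as RefSeq annotates it, against 0 for the 3 printed.

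In lung, dexamethasone raised 4 of the 6 enzymes and lowered 1. Across all 16108 genes tested in that comparison 55.6% passed the test (26.9% higher, 28.7% lower), so a call is common and the count of members is read against that. The members' median log2 change was 1.18, against -0.01 for all genes tested. Values are in CPM, a gene's reads relative to the library's total after scaling within a tissue by the trimmed mean of M-values, and a gene is called at an adjusted p under 0.05 by edgeR's quasi-likelihood test, adjusted over all genes by the Benjamini-Hochberg method.

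Nqo1 showed the largest response. It stood at 33.8, 40.4, 28.5 and 34.4 CPM in vehicle lung replicates 1 to 4 and at 107.6, 164, 86.5 and 111 CPM with dexamethasone. The lowest dexamethasone library was above the highest vehicle library. The share of all genes whose groups did not overlap was not counted, for this or any other comparison. The rise was 3.42-fold (95% interval 2.64 to 4.44, edgeR adjusted p = 2.69e-06), larger in absolute log2 terms than that of 88.9% of genes tested.

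Sod2, the mitochondrial dismutase, stood at 75.3, 65.1, 111 and 83.8 CPM in vehicle lung and at 212, 224, 145 and 185 CPM with dexamethasone. The groups did not overlap, although the lowest dexamethasone library and the highest vehicle library, each replicate 3, lay closest to each other. Sod2 rose 2.29-fold (95% interval 1.75 to 3.00, edgeR adjusted p = 0.000103). Its cytosolic counterpart Sod1 gave 122, 111, 119 and 110 CPM with vehicle and 109, 101, 106 and 117 CPM with dexamethasone. These groups overlapped, and the Sod1 ratio of 0.935 (95% interval 0.786 to 1.11) did not pass the test (edgeR adjusted p = 0.501).

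Gclc, which sets the pace of glutathione synthesis, was at 25.3, 28.7, 28.3 and 31.8 CPM with vehicle and at 45.6, 92.1, 52.5 and 66.2 CPM with dexamethasone. Every dexamethasone library exceeded every vehicle library, with a 2.25-fold rise (95% interval 1.71 to 2.95, edgeR adjusted p = 0.00013). Hmox1 was at 21.9, 21.4, 17.3 and 28.03 CPM with vehicle and at 39.6, 98.1, 43.6 and 32.6 CPM with dexamethasone. It rose 2.41-fold (95% interval 1.501 to 3.86, edgeR adjusted p = 0.00438), again without overlap, but replicate 2 stood far above the other dexamethasone libraries. Without that library the log2 change of Hmox1 was 0.80 rather than 1.27 (edgeR adjusted p = 0.00284).

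Lung dexamethasone replicate 2 was the highest of its group for 4 members (Sod2, Hmox1, Nqo1, Gclc) and the lowest for the other 2 (Sod1 and Cat). It also had the group's highest share of unaligned reads, 3.50% against 1.93% as the lowest, whose part in these values was not tested. The 4 rises were called without it. They were also called without replicates 3 and 4, which an earlier analysis of these data had found apart from the others.

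Catalase was the member that went down. Cat gave 197, 189, 185 and 187 CPM in vehicle lung and 169.9, 143, 176 and 159 CPM with dexamethasone, so the groups did not overlap although they lay close. The fall was to 0.854 of the vehicle level (95% interval 0.76 to 0.96, edgeR adjusted p = 0.0238). The call for Cat was lost without lung vehicle replicate 1, 2 or 4 (edgeR adjusted p = 0.0936, 0.0657 and 0.0639) or without dexamethasone replicate 2 or 4 (edgeR adjusted p = 0.0501 and 0.0715).

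**Figure D1:**
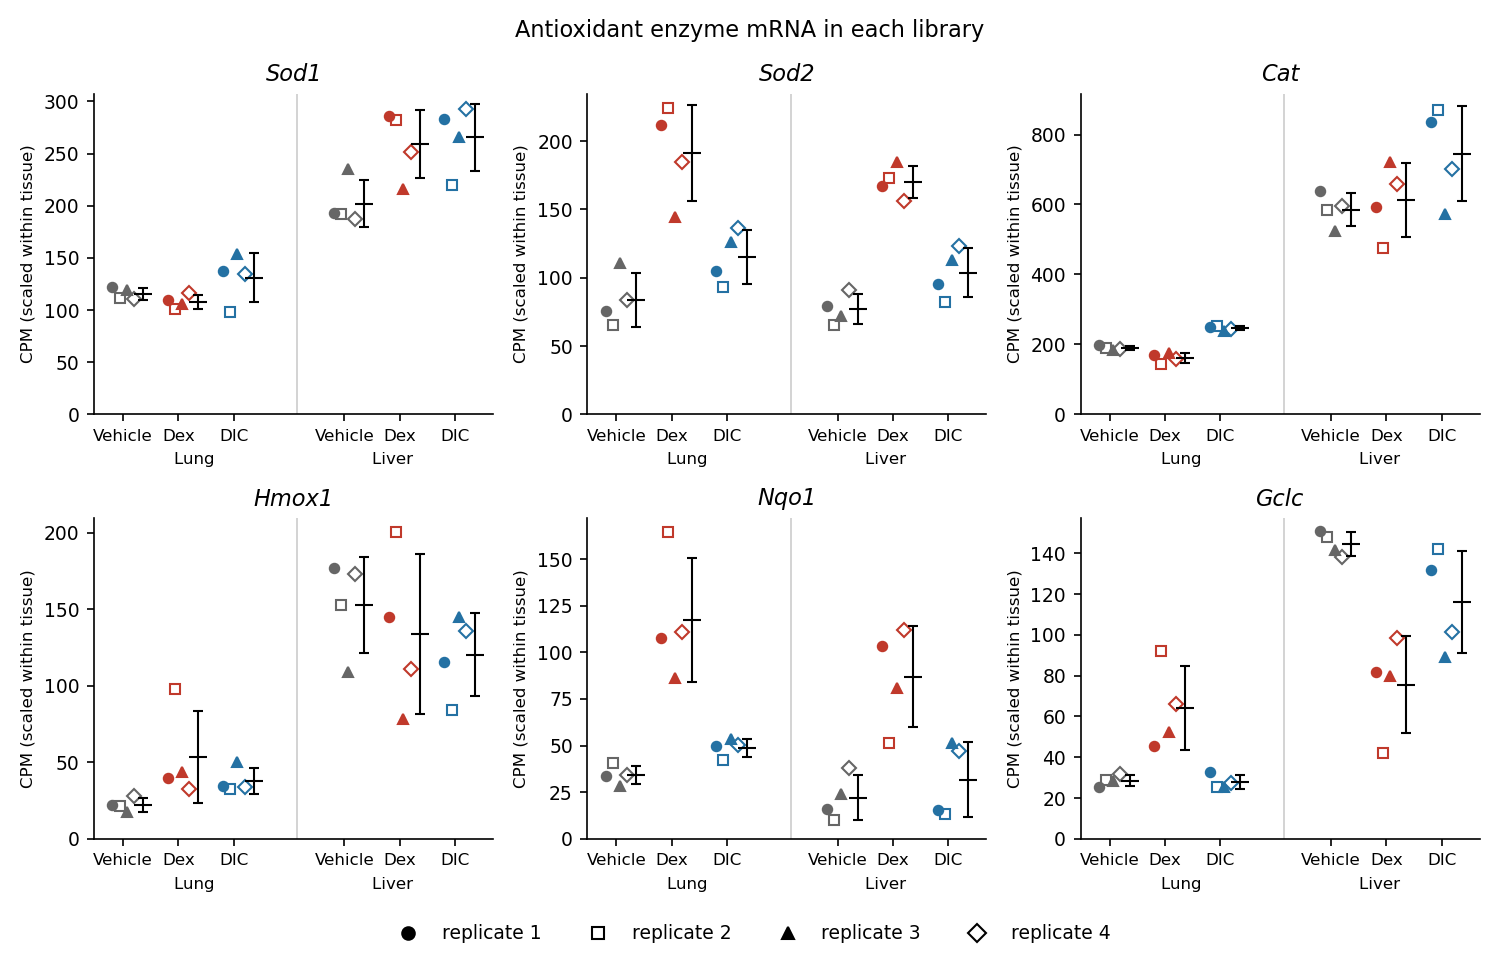
CPM scaled within tissue (vertical axis, linear, from 0) of each enzyme in every library, by treatment in lung (left of each panel) and liver (right). The tissues were scaled apart, so levels are not comparable between lung and liver. Dex is dexamethasone, DIC is desisobutyryl ciclesonide, symbols mark the replicate number, and the bar beside each group is its mean with SD (n = 4). Nqo1 and Sod2 with dexamethasone lie above all vehicle libraries in both tissues, while Gclc lies above them in lung and below them in liver.

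In liver, dexamethasone raised 3 of the 6 enzymes and lowered 1, where 47.5% of the 13734 genes tested passed (22.5% higher, 24.9% lower). The members' median log2 change was 0.21, against -0.02 for all genes tested. Sod2 stood at 79.4, 65.1, 72.0 and 90.8 CPM in vehicle liver and at 167, 173, 184.5 and 156 CPM with dexamethasone. Both groups were tight and far apart, and the rise was 2.21-fold (95% interval 1.79 to 2.75, edgeR adjusted p = 2e-05).

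Nqo1 in vehicle liver varied more between libraries, with 15.7, 10.1, 23.9 and 37.9 CPM, a 3.75-fold span. With dexamethasone it was at 103, 51.2, 81.1 and 112 CPM, all above the highest vehicle library. The rise was 3.96-fold, and the spread left a wide 95% interval from 1.76 to 8.89 (edgeR adjusted p = 0.00987).

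Gclc in liver moved the other way from lung. It was at 151, 148, 142 and 138 CPM with vehicle, the narrowest relative spread of any member in vehicle liver (coefficient of variation 4.02%), and at 81.6, 42.2, 79.9 and 98.4 CPM with dexamethasone. All dexamethasone libraries were below all vehicle libraries. The Gclc level fell to 0.522 of vehicle (95% interval 0.381 to 0.715, edgeR adjusted p = 0.00219), and without dexamethasone replicate 2, the lowest, the log2 change was -0.74 (edgeR adjusted p = 0.00193).

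Sod1 gave 193, 192, 236 and 187 CPM with vehicle and 286, 283, 216 and 251 CPM with dexamethasone, and the groups overlapped through vehicle replicate 3 and dexamethasone replicate 3. Its 1.28-fold difference (95% interval 1.04 to 1.58) passed narrowly (edgeR adjusted p = 0.0484). The Sod1 call was lost on leaving out liver vehicle replicate 1, 2 or 4 or liver dexamethasone replicate 1, 2 or 4 (edgeR adjusted p from 0.0707 to 0.113), and with upper-quartile scaling, where its log2 change was 0.23 rather than 0.36 (edgeR adjusted p = 0.17), or library size alone (0.12, edgeR adjusted p = 0.447). It was also lost with no filter on low counts (edgeR adjusted p = 0.0739).

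Cat and Hmox1 did not pass the test in liver. Cat was at 637, 584, 525 and 595 CPM with vehicle and at 593, 475, 722 and 658 CPM with dexamethasone, a ratio of 1.05 (95% interval 0.813 to 1.34, edgeR adjusted p = 0.779). Hmox1 was at 177, 153, 109 and 173 CPM with vehicle and at 145, 201, 78.2 and 111 CPM with dexamethasone, a ratio of 0.874 (95% interval 0.594 to 1.29, edgeR adjusted p = 0.564). Vehicle and dexamethasone libraries overlapped for both genes. Liver dexamethasone replicate 2 was highest of its group for Hmox1 and lowest for Cat, Nqo1 and Gclc. Every group has a highest and a lowest library for each member, so tallies like these arise in any group. Liver desisobutyryl ciclesonide replicate 2 was highest for 2 members and lowest for 4. Lung desisobutyryl ciclesonide replicate 2 was highest for 1 and lowest for 4, and replicate 3 highest for 3 and lowest for 2. Liver dexamethasone replicate 2 also had the lowest scaling factor of all libraries (0.804). The part of that factor in these values was not tested.

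**Figure D2:**
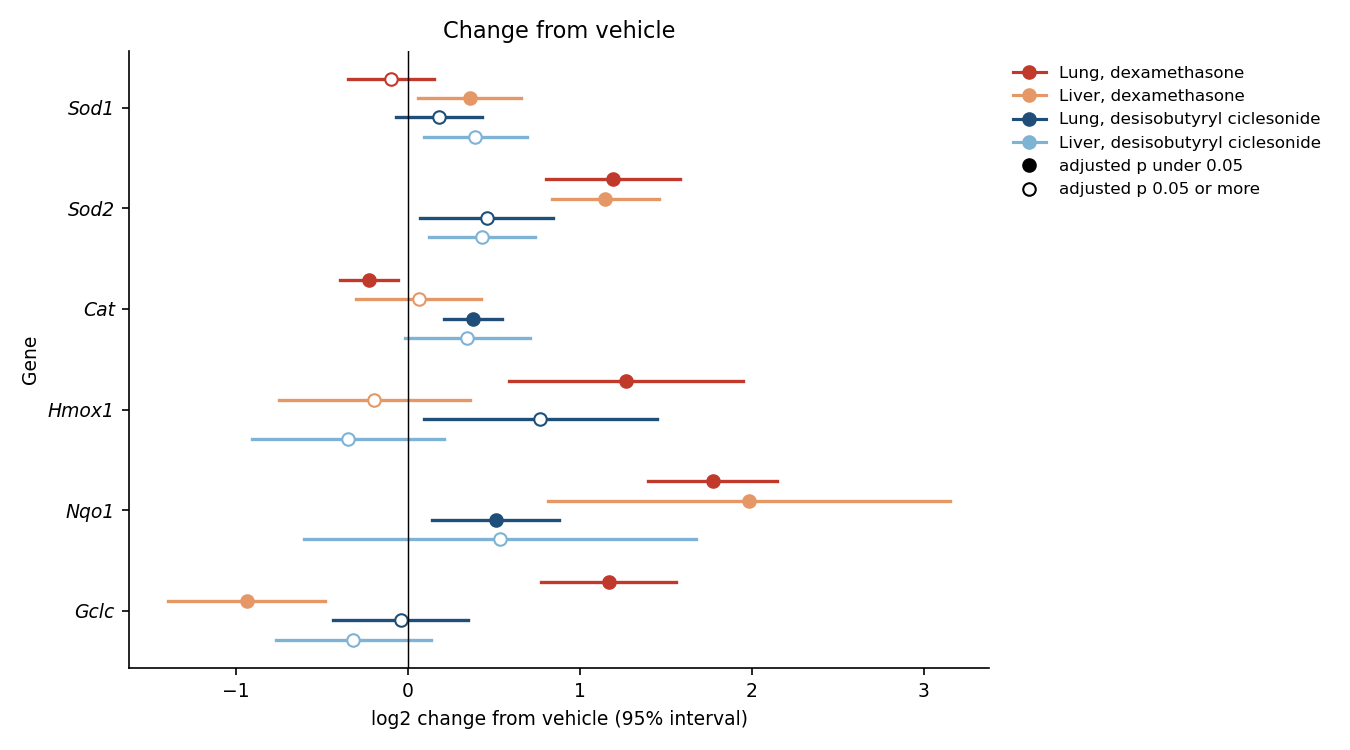
Log2 change from vehicle (horizontal axis) of each enzyme with its 95% interval, by tissue and drug, with 4 libraries per group; filled points passed the edgeR test at an adjusted p under 0.05. Sod2 and Nqo1 with dexamethasone sit above 0 in lung and liver, and Gclc sits at 1.17 in lung and -0.94 in liver.

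The lung log2 change less the liver log2 change, fitted over all 24 libraries, gave the difference in response between tissues. For dexamethasone, 2 of the 6 enzymes passed, where 34.7% of 13245 genes tested did (16.9% higher, 17.8% lower). Gclc differed by 2.11 (95% interval 1.49 to 2.73, edgeR adjusted p = 1.3e-05), more than 94.0% of genes tested in absolute size. Hmox1 differed by 1.47 (95% interval 0.59 to 2.34, edgeR adjusted p = 0.00978), and by 1.05 without lung dexamethasone replicate 2.

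For Sod2 and Nqo1, which rose in both tissues, no difference in response was called. The Sod2 difference was 0.05 (95% interval -0.44 to 0.53) and the Nqo1 difference was -0.21 (95% interval -1.35 to 0.92), with edgeR adjusted p of 0.898 and 0.796. As a ratio of folds, the Nqo1 interval runs from 0.392 to 1.89. For Sod1 the difference of -0.45 (95% interval -0.83 to -0.08) missed the threshold (edgeR adjusted p = 0.0566). Like-numbered lung and liver libraries of a treatment deviated together, a pairing that the main fit left out. The labels do not say that a number marks a pup. With each such pair as a replicate block, Sod1 passed (edgeR adjusted p = 0.0268). It also passed without liver vehicle replicate 3 or liver dexamethasone replicate 3 (edgeR adjusted p = 0.0264 and 0.0305) and by limma-voom (0.0493). Cat differed by -0.29 (95% interval -0.68 to 0.10, edgeR adjusted p = 0.251).

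Desisobutyryl ciclesonide raised 2 of the 6 enzymes in lung, Cat and Nqo1, where 24.1% of genes tested passed (11.8% higher, 12.3% lower). The members' median log2 change was 0.42, against -0.01 for all genes tested. The libraries of this drug had 0.801% to 1.40% unaligned reads, below the 1.88% to 3.50% of all other libraries, and the deposited file names number them in a separate series. The drug and that library series cannot be told apart in any comparison that involves it.

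Cat stood at 249.96, 251, 239.7 and 245 CPM with desisobutyryl ciclesonide, above all vehicle libraries (185 to 197 CPM), with a coefficient of variation of 2.12%, the smallest of any member and group. The rise was 1.30-fold (95% interval 1.16 to 1.46, edgeR adjusted p = 0.00444), and Cat was called in all 15 alternative analyses. The direction is opposite to that with dexamethasone. Nqo1 was at 49.7, 42.0, 53.7 and 50.1 CPM, above all vehicle libraries (28.5 to 40.4 CPM), and rose 1.43-fold (95% interval 1.10 to 1.84, edgeR adjusted p = 0.0447). The call for Nqo1 was lost without lung vehicle replicate 1, 3 or 4 or without lung desisobutyryl ciclesonide replicate 1, 3 or 4 (edgeR adjusted p from 0.0831 to 0.123), and with limma-voom (0.0618) or library size alone (0.0637).

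The other 4 enzymes did not pass edgeR's test in lung, although DESeq2 called Hmox1 (adjusted p = 0.0335) and Sod2 (adjusted p = 0.0394). Hmox1 was at 34.4, 32.6, 50.3 and 34.1 CPM, all above the vehicle libraries, yet its ratio of 1.71 (95% interval 1.07 to 2.73) missed the threshold (edgeR adjusted p = 0.0925). Sod2 was at 105, 93.0, 126 and 136 CPM, overlapping vehicle, with a ratio of 1.37 (95% interval 1.05 to 1.80, edgeR adjusted p = 0.079). It passed without lung vehicle replicate 3, the highest vehicle library (edgeR adjusted p = 0.0252). Sod1 was at 137, 97.8, 154 and 135 CPM, with a ratio of 1.13 (95% interval 0.952 to 1.35, edgeR adjusted p = 0.287). It passed without desisobutyryl ciclesonide replicate 2, its lowest library (edgeR adjusted p = 0.0271). Gclc was at 32.6, 25.6, 25.4 and 27.3 CPM, overlapping vehicle (25.3 to 31.8 CPM) with replicate 1 just above it, with a ratio of 0.972 (95% interval 0.741 to 1.28, edgeR adjusted p = 0.899).

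In liver none of the 6 enzymes passed with desisobutyryl ciclesonide by edgeR's test, where 4.52% of genes tested did (2.09% higher, 2.43% lower). At an unadjusted p under 0.05 there were 2, Sod1 and Sod2, but the share of all genes under that cutoff was not counted. DESeq2 called the same 2 (adjusted p = 0.0493 and 0.047) among 1191 genes, while limma-voom called 0 of the 6 enzymes and 672 genes. All 6 overlapped between the groups, and the share of all genes that did was not counted. Sod1 was at 283, 220, 266 and 292 CPM, a ratio of 1.31 (95% interval 1.07 to 1.62, edgeR adjusted p = 0.127). Sod2 was at 95.6, 82.5, 113 and 123 CPM, a ratio of 1.35 (95% interval 1.09 to 1.67, edgeR adjusted p = 0.104). Both lay mostly above vehicle, with 1 vehicle library of each reaching into the drug group.

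Cat in these livers was at 836, 869.6, 573 and 700.1 CPM, a ratio of 1.27 (95% interval 0.989 to 1.64). Hmox1 was at 116, 84.0, 145 and 136 CPM, a ratio of 0.786 (95% interval 0.534 to 1.16), and Gclc at 132, 142, 89.3 and 101 CPM, a ratio of 0.803 (95% interval 0.587 to 1.10). Nqo1 parted into 2 low and 2 high libraries, 15.7 and 13.3 CPM in replicates 1 and 2 and 51.4 and 46.8 CPM in replicates 3 and 4, a ratio of 1.45 with a 95% interval from 0.658 to 3.20. Vehicle liver also had replicates 1 and 2 below replicates 3 and 4, but dexamethasone liver did not (103, 51.2, 81.1 and 112 CPM in replicates 1 to 4). The edgeR adjusted p of these 4 genes lay between 0.259 and 0.599.

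The response to desisobutyryl ciclesonide was not called different between the tissues for any of the 6 by edgeR, where 4.31% of genes tested were (2.31% higher, 2% lower). At an unadjusted p under 0.05 there was 1, Hmox1, with a difference of 1.12 (95% interval 0.24 to 1.99, edgeR adjusted p = 0.15), and DESeq2 and limma-voom each called 0. The share of all genes under that unadjusted cutoff was not counted. With like-numbered libraries paired as a replicate block Hmox1 passed (edgeR adjusted p = 0.0104), where calls over all genes rose from 571 to 779. The 95% intervals for Sod2 (-0.46 to 0.51), Cat (-0.36 to 0.43) and Sod1 (-0.59 to 0.16) were narrower than that for Nqo1 (-1.18 to 1.11).

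**Figure D3:**
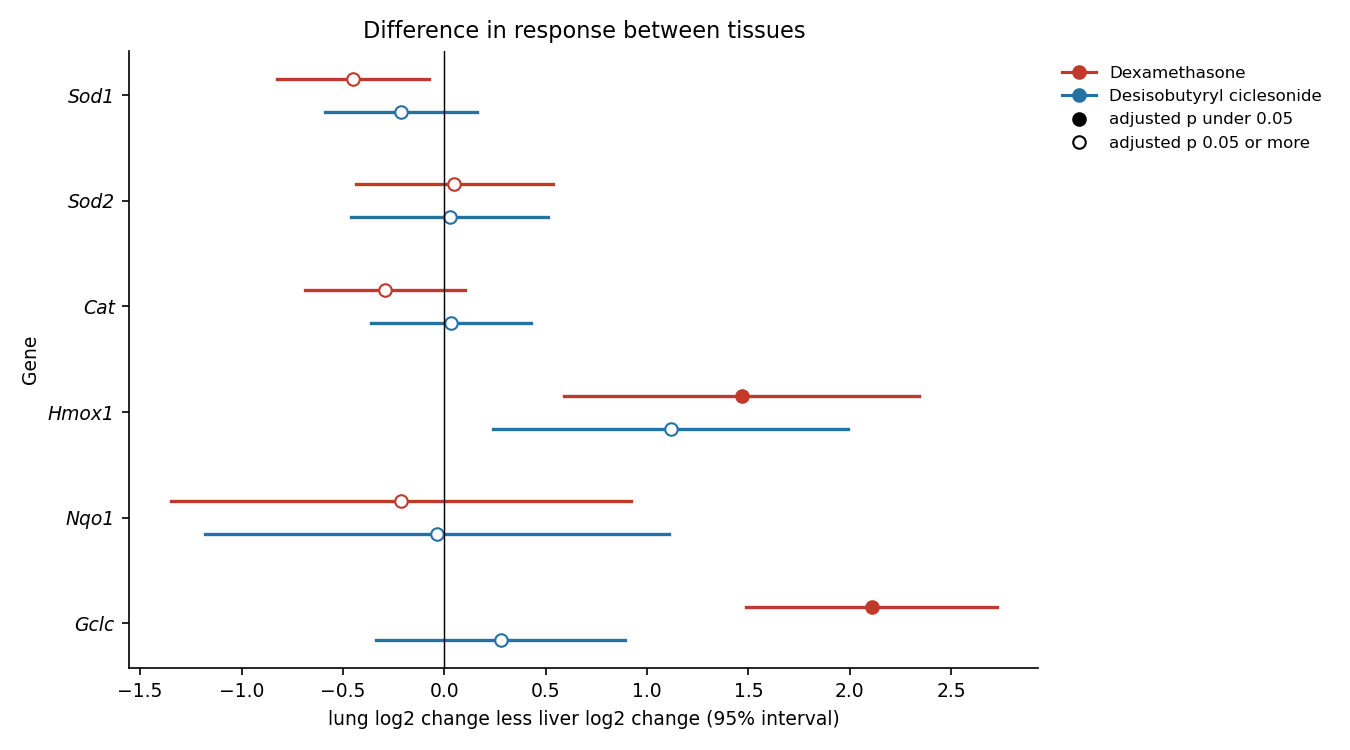
Lung log2 change less liver log2 change (horizontal axis) for each enzyme and drug, with 95% intervals from the fit to all 24 libraries; filled points passed the edgeR test. Gclc and Hmox1 with dexamethasone, at 2.11 and 1.47, are the filled points.

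Set beside each other at doses of 1.25 mg/kg and 0.1 mg/kg, the drugs gave different levels of 4 enzymes in lung, where 49.5% of genes tested differed (25% higher, 24.4% lower), and of 3 in liver, where 46.3% did (23.8% higher, 22.5% lower). With desisobutyryl ciclesonide, lung Nqo1 was at 0.417 (95% interval 0.322 to 0.539), Gclc at 0.433 (0.329 to 0.569) and Sod2 at 0.601 (0.46 to 0.785) of the dexamethasone level, and the groups did not overlap (edgeR adjusted p = 7.23e-05, 0.000165 and 0.00432). Cat was 1.52-fold higher (95% interval 1.35 to 1.71, edgeR adjusted p = 4.96e-05), also without overlap. Sod1 (ratio 1.21, 95% interval 1.02 to 1.44) and Hmox1 (ratio 0.709, 95% interval 0.445 to 1.13) did not pass (edgeR adjusted p = 0.0634 and 0.202). Sod1 passed without desisobutyryl ciclesonide replicate 2 (edgeR adjusted p = 0.00264) and with upper-quartile scaling (0.0291). The log2 difference of Hmox1, -0.50, rested on dexamethasone replicate 2: it was -0.03 without that library (edgeR adjusted p = 0.917) and -0.87 without dexamethasone replicates 3 and 4 together (edgeR adjusted p = 0.0448).

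In liver Sod2 was at 0.609 of the dexamethasone level (95% interval 0.492 to 0.754, edgeR adjusted p = 0.000984), without overlap. Nqo1 was lower (ratio 0.366, 95% interval 0.166 to 0.81) and Gclc higher (ratio 1.54, 95% interval 1.12 to 2.10), with edgeR adjusted p of 0.0403 and 0.0262 and overlapping libraries. Gclc lost its call without liver desisobutyryl ciclesonide replicate 1 or 2, and Nqo1 without either of those or without dexamethasone replicate 1, 3 or 4 (edgeR adjusted p from 0.0648 to 0.0957). The Nqo1 call was also lost with no filter on low counts (0.0809) and with library size alone (0.0565). The intervals of the other 3 were 0.831 to 1.26 for Sod1, 0.946 to 1.56 for Cat and 0.611 to 1.32 for Hmox1.

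Ordered by mean level in lung, dexamethasone came first for Nqo1, Sod2, Gclc and Hmox1, and desisobutyryl ciclesonide first for Cat and Sod1. Neighbouring groups did not overlap at any step for Nqo1 and Cat, and the share of all genes parted in this way was not counted. For Sod2 the libraries of desisobutyryl ciclesonide and vehicle overlapped, for Gclc those of vehicle and desisobutyryl ciclesonide, for Hmox1 those of the 2 drugs, and for Sod1 every neighbouring pair. In liver, neighbours in the order overlapped at every step except between dexamethasone and desisobutyryl ciclesonide for Sod2.

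Without steroid, 5 of the 6 enzymes were lower in lung than in liver, where 74.3% of 15294 genes tested differed (38.9% higher in lung, 35.4% lower). These values are scaled across the 8 vehicle libraries of both tissues. They differ from the CPM given above, which were scaled within a tissue and are not comparable between tissues. With library size alone, in place of scaling factors, the median log2 difference of all genes moved from 0.06 to 1.39, so directions here are relative to the bulk of genes. Hmox1 was at 14.6 ± 2.89 CPM in lung and 259 ± 53.5 CPM in liver (SD, n = 4), 17.7-fold higher in liver (95% interval 13.2 to 23.8, edgeR adjusted p = 2.3e-09). Gclc was at 18.8 ± 1.76 and 245 ± 10.99 CPM, 13.1-fold higher in liver (95% interval 11.1 to 15.3, edgeR adjusted p = 2.74e-11).

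Cat was at 125 ± 3.38 CPM in lung and 992 ± 81.5 CPM in liver (SD, n = 4), 7.94-fold higher in liver (95% interval 6.68 to 9.45, edgeR adjusted p = 3.17e-10). Sod1 was at 76.2 ± 3.90 and 342 ± 37.5 CPM, 4.496-fold higher in liver (95% interval 3.82 to 5.29, edgeR adjusted p = 3.05e-09). With library size alone the log2 differences were smaller but kept their direction and call, at -2.82 for Hmox1, -2.37 for Gclc, -1.66 for Cat and -0.83 for Sod1. Sod2 was at 55.1 ± 12.98 and 130 ± 18.4 CPM, 2.36-fold higher in liver (edgeR adjusted p = 2.03e-05), but its log2 difference turned from -1.24 to 0.09 with library size alone (edgeR adjusted p = 0.605). Nqo1, at 22.6 ± 3.20 and 37.1 ± 20.3 CPM, did not pass (log2 difference -0.72, edgeR adjusted p = 0.0825), turned to 0.62 with library size alone, and ranged from -0.96 without liver vehicle replicate 2 (edgeR adjusted p = 0.00534) to -0.32 without liver vehicle replicate 4 (edgeR adjusted p = 0.261). DESeq2 called Nqo1 lower in lung (adjusted p = 0.0361).

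**Figure D4:**
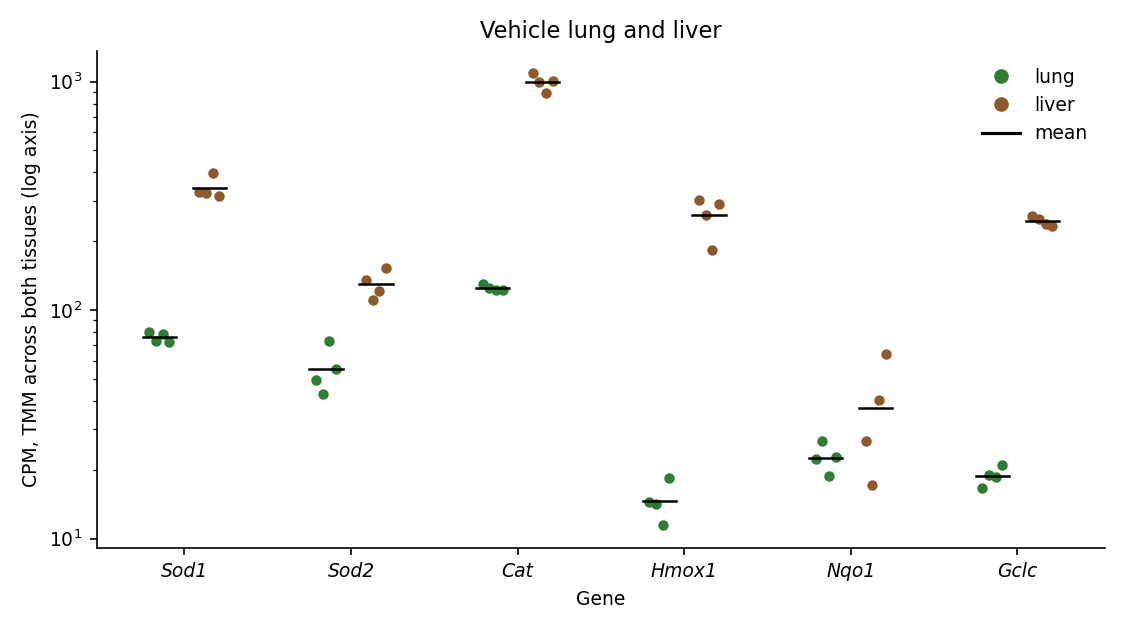
CPM of each enzyme in the 4 vehicle lung and 4 vehicle liver libraries (points, means as lines) on a log axis, scaled across both tissues. Lung and liver are far apart for Hmox1, Gclc, Cat and Sod1 and overlap for Nqo1.

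Over 5 log2 values per gene (lung less liver with vehicle, and the change with each drug in each tissue), the members nearest each other by Euclidean distance were Sod1 and Cat (0.906), Sod2 and Nqo1 (1.15) and Hmox1 and Gclc (1.19). All 5 values draw on the vehicle libraries, and they were not rescaled. Their median absolute size over all genes tested was 0.964 between vehicle tissues, against 0.239 to 0.534 for the drug changes. The difference between tissues therefore tends to weigh most in these distances. Among the 13163 genes with all 5 values, the nearest to Nqo1 was ENSRNOG00000067231 (distance 0.316) and the nearest to Sod2 was ENSRNOG00000001222 (distance 0.268). ENSRNOG00000067231 had log2 changes of 1.97 in lung and 1.89 in liver with dexamethasone. The gene nearest to Gclc, ENSRNOG00000001001, lay farther off (distance 0.637), with 1.03 in lung and -0.73 in liver. The files do not pair these identifiers with names.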

How the data were processed

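The authors deposited 1 table of raw read counts per gene for each of 24 libraries, made from poly-A selected, strand-marked RNA libraries per the labels' protocols. Read trimming, alignment and counting tools listed in the submitters' processing notes are HTSeq, HISAT2 and cutadapt, with the build mRatBN7.2; versions, annotation and strand setting are not given in the sources used here. The 5 rows per file that name no gene held 16.8% to 31.8% of counts and were left out. No 2 libraries of a group looked like copies (36 pairs checked).

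From these counts, edgeR 4.0.16 (R 4.3.3) filtered genes, scaled libraries by TMM and ran robust quasi-likelihood tests across all genes. Each tissue's 3 treatments were fitted together, the vehicle libraries of both tissues in another fit, and all 24 libraries for differences in response. Calls have a Benjamini-Hochberg adjusted p under 0.05. Intervals are 95%. Alternatives were RLE and upper-quartile scaling, DESeq2 1.42.0, limma-voom (limma 3.58.1), no filter, a replicate block, each replicate left out, lung dexamethasone replicates 3 and 4 left out and, added after seeing the data, library size alone. On simulated counts with 200 genes changed 2-fold and a dispersion of 0.05 for every gene, 75.0% were recovered for lung dexamethasone (15910 genes). For its difference between tissues, 28% were recovered (13219 genes). False calls made up 6.83% and 8.2% of the calls. A far larger share of genes was called in the data, so these rates do not give the power or error of the tests here.

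The labels do not say that a number marks a pup. Within a treatment, a lung and a liver library sharing a number had correlated deviations in 12 of 12 pairs (r from 0.114 to 0.303 over 13245 genes). Among the treatment's 4 liver libraries, the one with the same number correlated best for 12 of 12 lung libraries. Numbers were therefore taken to pair tissues. Where nothing says samples are separate animals, p-values measure only the spread between these samples. The members and lists were chosen with earlier results of these data known. The genes named are the 6 members and, for some, the gene nearest in pattern. The reference table pairs 0 Ensembl identifiers with names, so the wider pathway list and the tissue and cell type markers were not analysed here, nor the tissue labels checked against markers. Counts per member and library ranged from 196 to 17615. Promoters came from RefSeq (GRCr8) for 5 members, without Hmox1.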

Additional observations from a re-analysis of the deposited data

Results flagged for a closer look

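In 3 of 36 groups of 4 libraries 1 library stood far from the others, where chance alone sets apart about 1 group in 20. Hmox1 in lung dexamethasone replicate 2 was at 98.1 CPM, with a gap to the next library of 0.833 of the group's range. Hmox1 in lung desisobutyryl ciclesonide replicate 3 was at 50.3 CPM (0.899 of the range). Sod1 in liver vehicle replicate 3 was at 235.6 CPM (0.882 of the range).

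The dexamethasone response differed between lung and liver for 2 of the 6 enzymes by the test of the difference itself. Across all 13245 genes tested, 34.7% passed that test. The lung log2 change exceeded the liver log2 change by 2.11 for Gclc and by 1.47 for Hmox1. Gclc rose in lung and fell in liver, each past the test, whereas Hmox1 rose in lung and did not pass in liver. Both differences were called in all 24 alternative analyses, from 1.91 to 2.30 for Gclc and from 1.05 to 1.86 for Hmox1.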

How the results depend on the processing

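Of 924 values of single enzymes under an alternative, 875 kept their side of the threshold, 32 lost their call, 16 gained one and 1 called value reversed. Of the 875, 843 kept their sign and 32, none of them called, changed it. The called value that reversed was Sod2 between vehicle lung and liver with library size alone (0.093). With desisobutyryl ciclesonide in lung, 2 enzymes were called, against 4 with DESeq2, 1 with limma-voom, 1 with library size alone and 1 to 3 on leaving out a replicate. All genes called there were 3884, against 4574 with DESeq2, 3741 with limma-voom and 4299 with library size alone. They fell to between 2564 and 3366 on leaving out a replicate, lowest without desisobutyryl ciclesonide replicate 3. In liver DESeq2 called 2 enzymes rather than 0 and 1191 genes rather than 621. Leaving out a liver replicate gave 295 to 482 genes, with the lower counts without vehicle replicate 2, 3 or 4 (358, 295, 374) or desisobutyryl ciclesonide replicate 2, 3 or 4 (409, 379, 322). Against dexamethasone in liver, 3 enzymes were called and 1 to 3 on leaving out a replicate, while all genes called went from 6358 to between 5649 and 6246. For the difference in desisobutyryl ciclesonide response between tissues, DESeq2 called 967 genes rather than 571.

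Pairing like-numbered lung and liver libraries (replicate block) gave 1 enzyme rather than 0 for the difference in desisobutyryl ciclesonide response, and 3 rather than 2 for dexamethasone. Calls over all genes rose too, from 571 to 779 for desisobutyryl ciclesonide and from 4601 to 5046 for dexamethasone. Within a tissue, the labels do not say whether a replicate number links libraries of different treatments. Same-numbered libraries correlated from -0.278 to 0.402 in lung and from -0.111 to 0.134 in liver. They correlated above 0.1 in 8 and 1 of 12 pairs, and best with their own number in 5 and 3 of 12. Blocking on that number within liver removed the Sod1 call with dexamethasone (edgeR adjusted p = 0.0873). It left 442 genes called with desisobutyryl ciclesonide.

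With library size alone, the share of calls that were higher moved from 47.5% to 29.4% for liver dexamethasone (37.4% with upper-quartile scaling), from 46.2% to 35.5% for liver desisobutyryl ciclesonide (34.4%), from 48.8% to 32.8% for lung desisobutyryl ciclesonide, from 51.5% to 67.3% between the drugs in liver, from 52.4% to 86.2% between vehicle tissues and from 48.7% to 63.5% for the dexamethasone response. The median of all genes was then -0.26 for liver and -0.11 for lung dexamethasone.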

Other observations

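Within a library, Sod2 reads per Sod1 read gave the balance of the mitochondrial and the cytosolic dismutase without any scaling between libraries, although not per transcript length. The ratio was 0.723 ± 0.156 in vehicle lung, 1.78 ± 0.381 with dexamethasone and 0.887 ± 0.114 with desisobutyryl ciclesonide (SD, n = 4). In liver it was 0.385 ± 0.0797 with vehicle, 0.667 ± 0.125 with dexamethasone and 0.39 ± 0.0417 with desisobutyryl ciclesonide. All dexamethasone libraries lay above all vehicle libraries in both tissues, and no test was run on these ratios.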
